A study of Mus musculus with 4 samples.

Results

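The 10 genes described here carry the major histocompatibility complex (MHC) class I pathway of the mouse in group 3 innate lymphoid cells (ILC3s) with and without Brg1. They were chosen by symbol from the 53379 genes of the expression table: the heavy chain genes *H2-K1*, *H2-D1*, *H2-T23* and *H2-Q7*, the light chain gene *B2m*, the peptide loading genes *Tap1*, *Tap2* and *Tapbp*, the immunoproteasome subunit gene *Psmb8* and the class I transactivator gene *Nlrc5*. Each symbol named 1 row, and all 10 passed the filter on low values.

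MHC class I molecules are surface proteins that show fragments of a cell's own proteins to CD8+ T cells and to receptors of natural killer (NK) cells. The proteasome cuts the peptides, the TAP transporter carries them into the endoplasmic reticulum, and tapasin holds the empty heavy chain and beta-2 microglobulin beside the transporter until a peptide fits. Interferon gamma is a classic inducer of these genes, through factors that include IRF1 and NLRC5. Brg1, encoded by *Smarca4*, is an ATPase of the BAF chromatin remodelling complexes.

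The ILC3s were small intestinal cells of chimeras, on a C57BL/6 background, that had received 2 kinds of bone marrow. Rag2-/- Il2rg-/- hosts, sub-lethally irradiated, received a mixture of Thy1.2 Rag1-/- Smarca4 f/f marrow, the source of the Brg1-sufficient cells, and Thy1.1Thy1.2 Rag1-/- Smarca4 f/f marrow with a Cre transgene, the source of the Brg1-deficient cells. The sort took cells with high Thy1.2 and low CD45 that were either Thy1.1- or Thy1.1+, between 6 and 7 weeks after transfer, and 2 libraries of each were sequenced. All donors thus lacked *Rag1* and all hosts lacked *Rag2* and *Il2rg*, and without either *Rag* gene mature T and B cells do not form. The Cre and the Thy1.1 allele are present only in the Brg1-deficient donor, so that their share in any difference between the groups cannot be told apart from that of Brg1. Donor ages are not given in the sources used here.

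The values were deposited as FPKM, fragments per kilobase of transcript scaled to mapped reads, so that levels are per length. The depth of the libraries is unknown. The libraries hold nearly the same sorted list of values, as after quantile normalization, so a value reflects the rank of a gene within its library. *Smarca4* measured 17.07 and 16.73 FPKM in Brg1-sufficient libraries 1 and 2 and 9.98 and 9.03 FPKM in Brg1-deficient libraries 1 and 2. The level without Brg1 averaged 56.2% of that with it, and the groups did not overlap (log2 fold change -0.77, adjusted p = 0.153 by limma with Benjamini-Hochberg adjustment). The sources used here do not say which part of the gene the floxed allele removes, so this value checks the labels only in part. The 8 ILC3 markers summed to 9782.9 and 12080.3 FPKM in Brg1-sufficient against 22914.2 and 12149.7 FPKM in Brg1-deficient libraries. Most of it was *Il22*, at 8328.18 and 10407.92 against 21159.06 and 10407.92 FPKM. Of the 8, 2 were lower and 2 higher without overlap, against 44.6% of all genes in either direction. *Ccr6* measured 185.82 and 203.32 against 92.86 and 105.78 FPKM and *Il1r1* 105.61 and 128.46 against 144.54 and 146.87 FPKM. *Il7r* lay between 432.95 and 582.73 FPKM. At an adjusted p under 0.05 the whole table gave 33 lower and 12 higher genes in the cells without Brg1.

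Promoter sequences are shown for the 4 heavy chain genes and *B2m*, because they hold matches to motifs through which interferon, NF-kB and the NF-Y complex are known to act on class I genes. RefSeq (GRCm38.p6) listed a promoter window for 8 of the 10 genes, and *Tap2* and *Nlrc5* were not matched. Each window runs from 250 bases before to 50 bases after a single RefSeq start per gene, and other starts were not read. The windows of *H2-D1*, *Tapbp* and *Psmb8* lie wholly inside the GENCODE gene spans given below, so they do not cover the outermost start of those genes. Each window is printed 5′ to 3′ on the gene's own strand, and capitals mark every match, on either strand, to the kappa B consensus, to AANNGAAA (the core of the interferon response element), to TGACG (a CRE-like motif) or to CCAAT.
H2-K1, chr17:34000298-34000597, minus strand: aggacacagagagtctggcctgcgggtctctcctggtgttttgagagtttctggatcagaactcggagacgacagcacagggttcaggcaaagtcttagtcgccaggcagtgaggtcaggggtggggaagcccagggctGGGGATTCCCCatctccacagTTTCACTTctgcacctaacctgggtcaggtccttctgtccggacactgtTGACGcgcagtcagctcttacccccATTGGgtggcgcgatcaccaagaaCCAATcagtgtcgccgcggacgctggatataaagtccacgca
H2-D1, chr17:35262844-35263143, plus strand: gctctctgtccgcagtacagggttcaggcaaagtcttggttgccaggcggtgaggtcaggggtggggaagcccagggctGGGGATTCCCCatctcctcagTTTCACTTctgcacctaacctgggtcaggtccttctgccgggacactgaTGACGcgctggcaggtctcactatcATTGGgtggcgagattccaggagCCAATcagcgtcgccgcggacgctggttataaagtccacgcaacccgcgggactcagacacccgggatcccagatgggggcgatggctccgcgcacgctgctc
H2-Q7, chr17:35438905-35439204, plus strand: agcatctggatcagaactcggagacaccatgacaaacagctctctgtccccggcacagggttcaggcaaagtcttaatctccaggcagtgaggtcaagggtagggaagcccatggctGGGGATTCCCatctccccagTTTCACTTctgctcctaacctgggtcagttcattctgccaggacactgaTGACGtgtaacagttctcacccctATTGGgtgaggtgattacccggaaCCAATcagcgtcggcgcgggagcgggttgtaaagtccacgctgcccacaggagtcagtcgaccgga
H2-T23, chr17:36032652-36032951, minus strand: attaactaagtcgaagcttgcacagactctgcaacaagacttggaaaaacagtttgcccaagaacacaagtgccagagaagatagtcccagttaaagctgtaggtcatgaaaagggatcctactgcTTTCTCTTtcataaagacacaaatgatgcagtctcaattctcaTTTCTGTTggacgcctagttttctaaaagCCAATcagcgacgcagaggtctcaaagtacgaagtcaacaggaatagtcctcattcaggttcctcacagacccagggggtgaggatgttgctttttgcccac
B2m, chr2:122147437-122147736, plus strand: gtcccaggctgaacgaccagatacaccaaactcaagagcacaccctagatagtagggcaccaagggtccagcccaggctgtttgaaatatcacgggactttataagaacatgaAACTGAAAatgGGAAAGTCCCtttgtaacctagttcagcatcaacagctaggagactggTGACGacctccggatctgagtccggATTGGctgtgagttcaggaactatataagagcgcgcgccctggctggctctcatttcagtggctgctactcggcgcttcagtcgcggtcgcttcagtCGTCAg

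*H2-K1*, *H2-D1* and *H2-Q7* held the 4 motifs in the same order: a kappa B match, an interferon response element core, a CRE-like motif and a pair of CCAAT matches on opposite strands. From the start of the kappa B match to that of the last CCAAT match there were 119 bases in *H2-K1*, 118 bases in *H2-D1* and 117 bases in *H2-Q7*. The kappa B consensus is nearly symmetric and matches the same site 2 times in *H2-K1* and *H2-D1*, in overlapping frames. *B2m* held all 4 motifs too, but with the interferon response element core ahead of the kappa B match. *H2-T23* held 2 interferon response element cores and a CCAAT match, *Tap1* a CRE-like motif and a CCAAT match and *Tapbp* 2 CCAAT matches, while none of these letters were found in the window of *Psmb8*. Of 27025 promoter windows of the same length, 4.35% held the kappa B consensus, 24.2% AANNGAAA, 21% TGACG and 37.9% CCAAT. A match is a description of the sequence and not a site of binding, which was not measured here.

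In the genome, 8 of the 10 genes lie on mouse chromosome 17, in the H2 complex (GRCm38, GENCODE M21). *Tapbp* spans 33915899 to 33929292 and *H2-K1* 33996017 to 34000347. *Tap1* (34187553 to 34197225), *Psmb8* (34197721 to 34201454) and *Tap2* (34203527 to 34216321) follow one another among the class II genes, *H2-D1* spans 35262730 to 35267499, *H2-Q7* 35439155 to 35443773 and *H2-T23* 36029773 to 36032855. *B2m* is on chromosome 2 (122147686 to 122153083) and *Nlrc5* on chromosome 8 (94434356 to 94527272).

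The classical heavy chains come first. *H2-K1*, which encodes the H-2K heavy chain, measured 3023.08 and 3306.17 FPKM in Brg1-sufficient libraries 1 and 2 and 3583.43 and 3790.26 FPKM in Brg1-deficient libraries 1 and 2. Both Brg1-deficient libraries lay above both Brg1-sufficient ones. The log2 fold change was 0.22 (95% interval -0.15 to 0.59, adjusted p = 0.603), so the difference did not pass the test.

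*H2-D1*, which encodes the H-2D heavy chain, measured 2545.18 and 2605.66 FPKM in Brg1-sufficient and 2455.03 and 2720.61 FPKM in Brg1-deficient libraries. The Brg1-deficient libraries bracketed the Brg1-sufficient ones, and the log2 fold change was 0.01 (95% interval -0.36 to 0.37, adjusted p = 0.991). The ratio of *H2-K1* to *H2-D1* within a library was 1.19 and 1.27 in Brg1-sufficient and 1.46 and 1.39 in Brg1-deficient ILC3s. A single factor that scales a whole library cancels in this ratio, but a rank-based scaling such as quantile normalization does not. The ratio did not overlap between the groups, and with 2 libraries against 2 the exact permutation test cannot give a two-sided p under 0.333.

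Among the non-classical heavy chains, *H2-T23* encodes Qa-1, the ligand of the CD94-NKG2 receptors. It measured 187.1 and 245.45 FPKM in Brg1-sufficient and 251.61 and 288.39 FPKM in Brg1-deficient libraries. The groups did not overlap, but Brg1-sufficient library 2 and Brg1-deficient library 1 were nearly level, and the log2 fold change of 0.33 did not pass the test (95% interval -0.13 to 0.79, adjusted p = 0.533).

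*H2-Q7* encodes Qa-2. It measured 397.68 and 494.2 FPKM in Brg1-sufficient and 386 and 399.03 FPKM in Brg1-deficient libraries. Only Brg1-sufficient library 2 stood above the other libraries, and the log2 fold change was -0.18 (95% interval -0.57 to 0.22, adjusted p = 0.679). Its neighbour *H2-Q6*, close to it in sequence, measured 451.63 and 468.04 FPKM against 550.79 and 502.29 FPKM, so that the ratio of *H2-Q6* to *H2-Q7* was 1.14 and 0.947 in Brg1-sufficient and 1.43 and 1.26 in Brg1-deficient libraries. The sum over the 8 *H2-Q* rows, which depends less on how reads were divided among these paralogs, was 1147 FPKM ± 140 (SD, n = 2) in Brg1-sufficient and 1150 FPKM ± 44.7 (SD, n = 2) in Brg1-deficient ILC3s, that is, nearly the same mean.

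The heavy chain genes as a whole were summed over 32 rows. The sum was 6991.9 and 7620.7 FPKM in Brg1-sufficient libraries and 7719.8 and 8167.6 FPKM in Brg1-deficient libraries, a ratio of means of 1.09. The smallest possible p of the exact permutation test is again 0.333. *H2-K1* and *H2-D1* made up 77.6 to 79.7% of the sum in the 4 libraries, and the *H2-Q* rows 13.7 to 16.4%, so the classical chains dominated the class I transcripts of both kinds of ILC3.

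*B2m*, the light chain that every heavy chain needs for its fold, was the most abundant of the 10 genes. It measured 7209.64 FPKM in both Brg1-sufficient libraries and in Brg1-deficient library 1, and 6828.03 FPKM in Brg1-deficient library 2 (log2 fold change -0.04, 95% interval -0.42 to 0.34, adjusted p = 0.934). The equal values come from the scale: the libraries hold nearly the same sorted list of values, and 7209.64 is the value of rank 6 in each library and 6828.03 that of rank 7. *B2m* was thus the gene of rank 6, 6, 6 and 7, and smaller differences than 1 rank cannot be seen. The heavy chain sum divided by *B2m* was 0.97 and 1.06 in Brg1-sufficient and 1.07 and 1.2 in Brg1-deficient libraries.

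**Figure D1:**
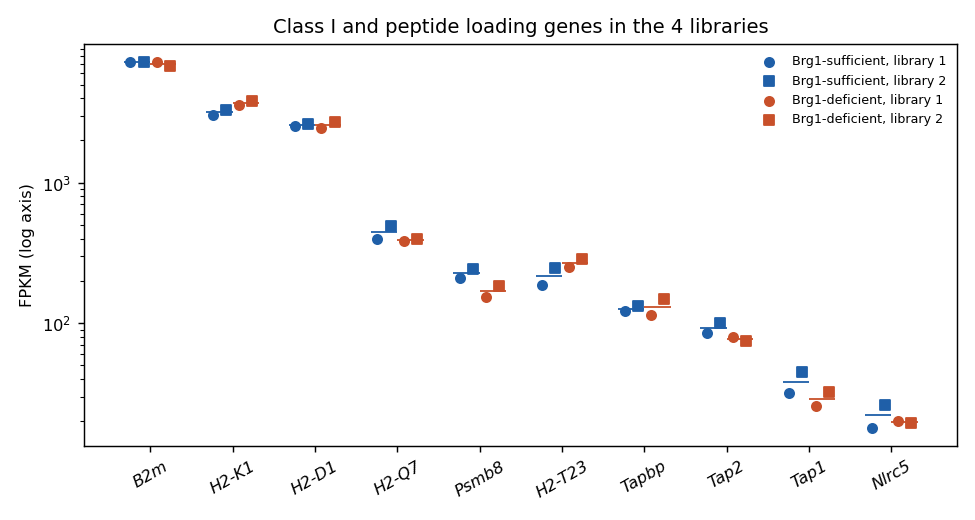
FPKM of the 10 genes in each library on a log axis (blue, Brg1-sufficient; orange, Brg1-deficient; circles, library 1; squares, library 2; short lines, group means). The levels run from 7209.64 FPKM for *B2m* to 17.94 FPKM for *Nlrc5*, and for most genes the distance between colours is similar to that between symbols of 1 colour.

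The order of levels per length was the same at the top in all 4 libraries: *B2m*, *H2-K1*, *H2-D1* and *H2-Q7*, with ranges over the libraries that did not touch. The ranges of *Psmb8* and *H2-T23*, next in order, overlapped, as did those of *Tap1* and *Nlrc5* at the bottom, while *Tapbp* and *Tap2* stood apart from their neighbours.

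The transporter genes and *Tapbp* had far lower levels than *H2-K1*, *H2-D1* and *B2m*. *Tap1*, one chain of the TAP transporter, measured 31.77 and 44.57 FPKM in Brg1-sufficient and 25.7 and 32.3 FPKM in Brg1-deficient libraries. Brg1-deficient library 2 lay just above Brg1-sufficient library 1, and the log2 fold change was -0.37 (95% interval -0.93 to 0.19, adjusted p = 0.563).

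*Tap2*, the other chain, measured 85.74 and 99.75 FPKM against 79.61 and 74.52 FPKM. Both Brg1-deficient libraries were below both Brg1-sufficient ones, with a log2 fold change of -0.26 (95% interval -0.63 to 0.11, adjusted p = 0.537). The transporter is a heterodimer, and in every library *Tap2* was above *Tap1*, with a ratio between 2.24 and 3.10 that overlapped between the groups.

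*Tapbp*, which encodes tapasin, measured 121.51 and 132.51 FPKM in Brg1-sufficient and 114.01 and 147.5 FPKM in Brg1-deficient libraries. The Brg1-deficient libraries were both the lowest and the highest of the 4 (log2 fold change 0.03, 95% interval -0.40 to 0.47, adjusted p = 0.959).

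*Psmb8* encodes the immunoproteasome subunit that takes the place of the constitutive subunit of *Psmb5*. It measured 211.31 and 241.57 FPKM in Brg1-sufficient and 153.63 and 182.71 FPKM in Brg1-deficient libraries. Both Brg1-deficient libraries lay below both Brg1-sufficient ones, and their mean was 74.3% of the Brg1-sufficient mean. The log2 fold change of -0.43 (95% interval -0.82 to -0.03) had an unadjusted p of 0.0378 and an adjusted p of 0.362. *Psmb8* was the only one of the 10 genes at an unadjusted p under 0.05, against 12.6% of all genes tested.

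The catalytic subunits of the immunoproteasome replace their constitutive counterparts one for one, so their ratio was taken within each library. *Psmb8* over *Psmb5* was 3.67 and 3.28 in Brg1-sufficient and 2.01 and 2.49 in Brg1-deficient ILC3s, without overlap. The other pairs did not share this pattern: *Psmb9* over *Psmb6* was 0.458 and 0.667 against 0.454 and 0.576, and *Psmb10* over *Psmb7* was 1.07 and 1.01 against 0.898 and 1.15, and both overlapped. *Psmb5* itself measured 57.59 and 73.63 against 76.28 and 73.39 FPKM (log2 fold change 0.20). The ratio of *Psmb8* to *Psmb5* uses the *Psmb8* values given above, so it is not separate evidence. A rank-based scaling does not cancel in these ratios either, and the exact permutation test cannot give a two-sided p under 0.333.

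**Figure D2:**
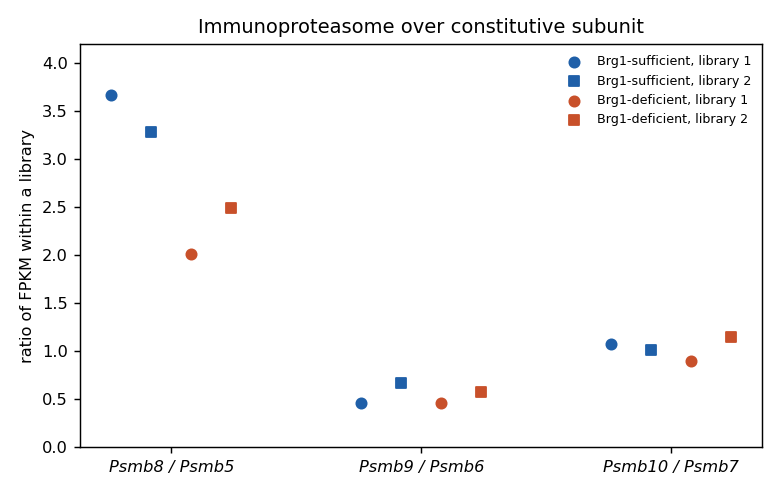
Ratio of each immunoproteasome subunit to the constitutive subunit it replaces, per library (blue, Brg1-sufficient; orange, Brg1-deficient; circles, library 1; squares, library 2). Only for *Psmb8* over *Psmb5* do the Brg1-deficient values, 2.01 and 2.49, lie below both Brg1-sufficient values, 3.28 and 3.67.

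*Nlrc5*, the transactivator that binds class I promoters through partner proteins, was the least abundant of the 10 genes. It measured 17.94 and 26.22 FPKM in Brg1-sufficient and 19.96 and 19.59 FPKM in Brg1-deficient libraries. The Brg1-deficient values lay between the Brg1-sufficient ones (log2 fold change -0.13, 95% interval -0.67 to 0.42, adjusted p = 0.837).

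As a list, 0 of the 10 genes were lower and 0 were higher at an adjusted p under 0.05 by limma, against 0.224% of all genes called lower and 0.0814% called higher, and 1 of the 10 had an unadjusted p under 0.05. In 4 of the 10 the groups did not overlap (*H2-K1* and *H2-T23* higher, *Tap2* and *Psmb8* lower), against 44.6% of all genes. The median log2 fold change was -0.08, and 0.03 over all genes tested. It was -0.19 without Brg1-sufficient library 1 and 0.00 without Brg1-sufficient library 2. The median size of the log2 change, its sign ignored, was 0.20, and 0.19 over the 6907 genes with a mean above 10 FPKM.

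The intervals set bounds on each change. The 95% intervals of all 10 genes lay within a 2-fold change in both directions, the outermost bounds being 0.523-fold for *Tap1* and 1.72-fold for *H2-T23*. The same held for 80.8% of the genes with a mean above 10 FPKM. The intervals of 9 of the 10 include no change. A shift within these bounds can be present in any of the 9, and the intervals are not adjusted for the number of genes.

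**Figure D3:**
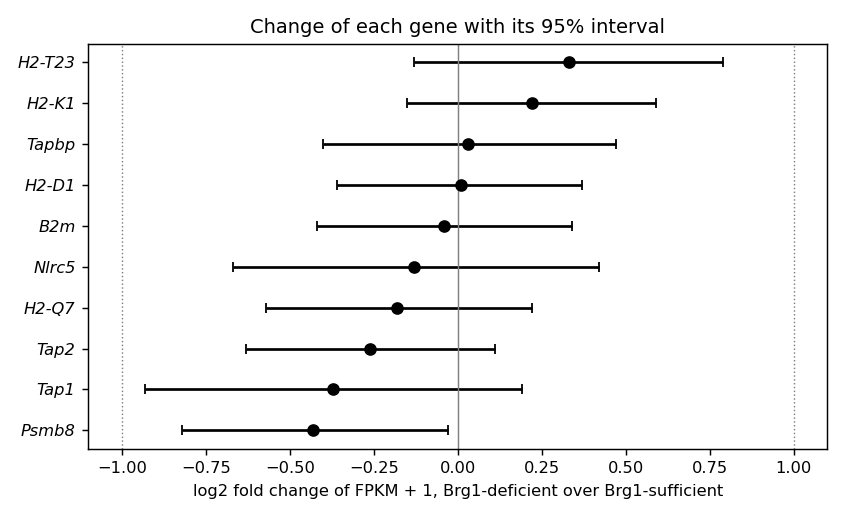
Log2 fold change of FPKM + 1, Brg1-deficient over Brg1-sufficient, for each of the 10 genes (points) with its 95% interval (bars). Dotted lines mark 2-fold changes. All intervals lie between them, and only that of *Psmb8* (-0.82 to -0.03) does not cross 0.

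The libraries also differed within the groups. In 7 of the 10 genes (all but *B2m*, *Tap2* and *Nlrc5*) library 2 was above library 1 in both groups, as it was in 25.5% of all genes tested. *Irf1*, the interferon-induced factor that acts on these promoters, followed the same order with 152.07 and 231.75 against 212.74 and 236.49 FPKM. The macrophage gene *Lyz2* was also higher in library 2 of both groups, at 84.11 and 202.51 against 64.44 and 191.92 FPKM. The 11 rows of myeloid and dendritic markers summed to 107 and 232 FPKM against 79.4 and 215 FPKM, with *Adgre1* at 5.76 and 6 against 2.09 and 3.67 FPKM, *Itgax* at 1.01 FPKM or below and *Flt3* at 0.64 FPKM or below. Their part in the values of the class I genes was not tested.

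Other cell types could add class I transcripts to a sort, since nearly all cells express them. In bulk samples fewer cells of a type and less RNA per cell cannot be told apart. The 7 ILC2 markers summed to 312 and 192 FPKM in Brg1-sufficient and 94.8 and 121 FPKM in Brg1-deficient libraries, and all 6 that were tested were lower without overlap, against 44.6% of all genes without overlap in either direction. *Klrg1* was at 42.15 and 11.04 against 1.64 and 2.19 FPKM and *Il17rb* at 29.89 and 9.96 against 1.55 and 1.29 FPKM. The 7 T cell markers summed to 131 and 59.2 against 34.2 and 43.4 FPKM, with *Cd3g* at 37.19 and 10.74 against 1.21 and 5.04 FPKM, *Cd3e* at 8.95 and 7.02 against 1.01 and 3.08 FPKM, *Cd8a* at 1.47 FPKM or below and *Cd5* at 0.3 FPKM or below. The 8 ILC1 and NK markers summed to 235 and 320 against 590 and 438 FPKM, with *Eomes* at 0.41 FPKM or below. Against 0.224% of all genes called lower at an adjusted p under 0.05, 2 of these markers fell. These were *Ncr1*, which encodes NKp46, at 31.32 and 35.54 against 5.37 and 6.02 FPKM, and *Ifng*, which encodes interferon gamma, at 22.75 and 37.28 against 3.42 and 3.22 FPKM. Most of the sum lay in *Gzma*, at 50.77 and 102.83 against 397.13 and 217.71 FPKM, and *Klrk1*, at 104.52 and 112.64 against 165.32 and 189.76 FPKM. Of the 7 that were tested, these 2 were higher without overlap, against 44.6% of all genes in either direction. Without overlap 4 were lower: *Ncr1*, *Ifng*, *Tbx21* and *Prf1*. The part of other cell types in the differences between the groups was not tested.

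The 5 B cell markers summed to 9.9 and 10.7 against 2.54 and 1.69 FPKM, with *Cd79b*, which fell, at 8.68 and 10.02 against 1.03 and 0.99 FPKM (adjusted p = 0.0386), *Ms4a1* at 0.32 FPKM or below and *Pax5* at 0.32 FPKM or below. The 6 epithelial markers summed to 4.82 and 6.62 against 19.9 and 16.8 FPKM, with *Krt18* at 2.02 and 3.48 against 15.72 and 12.92 FPKM, *Epcam* at 1.5 and 1.79 against 0.68 and 0.54 FPKM, *Vil1* at 0.38 FPKM or below and *Fabp2* at 0.26 FPKM or below. The 6 stromal and endothelial markers summed to 65.4 and 90.1 against 68.3 and 66.9 FPKM, nearly all of it *Pecam1*, with *Cdh5* at 0.29 FPKM or below.

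The other genes of the pathway were taken as lists. Of 27 further heavy chain symbols 24 were in the table and 11 passed the filter. Of these, 0 passed the test, and 3 had an unadjusted p under 0.05. Their median log2 fold change was 0.19. *H2-K2*, *H2-Q6*, *H2-Q10*, *H2-T24* and *H2-M3* were higher and *H2-Q2* was lower without overlap, and *H2-K2*, *H2-Q10* and *H2-T24* were those at an unadjusted p under 0.05. Over all genes the groups did not overlap in 44.6%, and 12.6% had an unadjusted p under 0.05. These shares serve for the lists below as well. *H2-K2*, an unprocessed pseudogene beside *H2-K1*, measured 44.43 and 45.41 FPKM in Brg1-sufficient and 85.74 and 68.72 FPKM in Brg1-deficient libraries, a log2 fold change of 0.76 (adjusted p = 0.156). *H2-Q10*, which is known as a liver class I gene, measured 32.39 and 33.36 against 45.2 and 47.12 FPKM (log2 fold change 0.48, adjusted p = 0.259). In annotated transcripts *H2-Q10* shares 58 stretches of 90 bases with *H2-K1* and 324 with *H2-Q7*, and *H2-K2* shares 20 with *H2-D1*. Whether reads of these more abundant genes added to the values of *H2-Q10* and *H2-K2* was not tested.

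Among 4 class I-like genes outside the H2 complex, 0 passed the test and 1 had an unadjusted p under 0.05. That gene was *Hfe*, a regulator of iron uptake, with 3.33 and 6.02 against 10.46 and 8.23 FPKM (log2 fold change 0.90, adjusted p = 0.316). *Cd1d1*, which presents lipids to NKT cells, measured 13.14 and 11.83 against 9.14 and 9.13 FPKM. The median of the list was -0.06.

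Of 7 further genes of peptide loading and trimming 0 passed the test and 1 had an unadjusted p under 0.05. That gene was *Lnpep*, an aminopeptidase of endosomes that trims peptides in cross-presentation, with 11.52 and 13.77 FPKM against 22.74 and 20.02 FPKM (log2 fold change 0.72, adjusted p = 0.199). *Erap1*, which trims peptides in the endoplasmic reticulum, measured 70.79 and 101.17 against 130.8 and 112.64 FPKM (log2 fold change 0.51, adjusted p = 0.409). Of the 7 genes, 2 were higher without overlap, these aminopeptidases, and 2 were lower without overlap, against 44.6% of all genes in either direction. The lower ones were *Canx* (log2 fold change -0.21) and *Pdia3* (-0.20), and the median of the list was 0.08.

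The 4 further genes of the immunoproteasome and of its PA28 activator had 0.12 as the median of their log2 fold changes, and 0 had an unadjusted p under 0.05. *Psme2*, a PA28 subunit, measured 332.75 and 289.47 against 347.84 and 371.34 FPKM, and *Psmb9* measured 76.34 and 79.61 against 62.08 and 77.88 FPKM. A list of 5 genes held the constitutive subunit genes *Psmb5*, *Psmb6* and *Psmb7* and the activator genes *Psme3* and *Psme4*. Of these 5, 0 passed the test and 1 had an unadjusted p under 0.05. That gene was *Psme4*, which encodes the PA200 activator, with 18.6 and 11.49 FPKM in Brg1-sufficient and 6.64 and 6.21 FPKM in Brg1-deficient libraries (log2 fold change -1.08, adjusted p = 0.189). *Psme3*, another proteasome activator subunit, measured 9.15 and 6.41 against 9.38 and 10.45 FPKM. The 5 cytosolic peptidases had a median of 0.06, with 0 at an unadjusted p under 0.05, and log2 fold changes of 0.62 for *Thop1*, which degrades short peptides, and -0.17 for *Npepps*, an aminopeptidase.

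The 13 regulators of class I transcription included the subunits of the RFX and NF-Y factors, which bind class I and class II promoters. Of these 0 passed the test, 1 had an unadjusted p under 0.05 and the median was 0.05. *Rfxank*, an RFX subunit, measured 31.44 and 30.44 FPKM in Brg1-sufficient and 18.79 and 20.56 FPKM in Brg1-deficient libraries, a log2 fold change of -0.63 (adjusted p = 0.184). *Nfya*, an NF-Y subunit, measured 3.97 and 2.49 against 6.07 and 4.37 FPKM (log2 fold change 0.57).

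Of 7 genes for interferon receptor chains and their kinases 0 passed the test, 1 had an unadjusted p under 0.05, and the median was -0.33. *Ifngr1*, the ligand-binding chain of the interferon gamma receptor, measured 355.7 and 275.81 FPKM in Brg1-sufficient and 177.33 and 130.32 FPKM in Brg1-deficient libraries. The level without Brg1 averaged 48.7% of that with it (log2 fold change -1.04, adjusted p = 0.148). *Jak2*, a kinase of that receptor, measured 17.93 and 7.8 against 6.82 and 6.72 FPKM, with Brg1-sufficient library 1 far above the other 3.

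A list of receptors for class I molecules and of related receptors gave 14 rows for 13 symbols, of which 8 passed the filter. Binding to class I was not measured here. Of these 0 passed the test and 3 had an unadjusted p under 0.05 (*Klra7* and 1 of 2 *Lilrb4a* rows lower, *Cd160* higher), against 12.6% of all genes. The median log2 fold change was -0.48, and it rests on the *Lilrb4a* rows, at -0.41 and -0.54. *Cd160*, a receptor for class I and class I-like ligands, measured 110.77 and 177.96 FPKM in Brg1-sufficient and 297.37 and 334.91 FPKM in Brg1-deficient libraries, a log2 fold change of 1.16 (adjusted p = 0.153). *Klrd1*, the CD94 chain of the receptors for Qa-1, measured 9.9 and 1.34 against 1.16 and 1.16 FPKM, so that its log2 fold change of -1.23 rests on Brg1-sufficient library 1.

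The MHC class II genes, whose products present peptides from outside the cell to CD4+ T cells and which ILC3s are known to express, served as the nearest comparison. Of 10 genes 9 passed the filter and 1 fell at an adjusted p under 0.05, against 0.224% of all genes called lower. At an unadjusted p under 0.05 there were 6, all lower, against 12.6% of all genes in either direction. The median log2 fold change was -1.05, beside -0.08 for the 10 class I genes. *H2-Oa*, a chain of the H2-O protein that tunes class II loading, measured 18.41 and 12.61 FPKM in Brg1-sufficient and 1.44 and 1.4 FPKM in Brg1-deficient libraries (log2 fold change -2.75, adjusted p = 0.0386). *Cd74*, the invariant chain, was chosen after its values were seen and measured 1014.19 and 939.59 against 223.14 and 505.12 FPKM (log2 fold change -1.54, adjusted p = 0.2). In 6 of the 9 genes the groups did not overlap, all with lower values in Brg1-deficient libraries, against 44.6% of all genes in either direction. The class II transactivator gene *Ciita* was the 1 gene with a positive log2 fold change, 0.27, and its groups overlapped. With any 1 library left out the log2 fold change of *H2-Oa* lay between -3.00 and -2.49, while no gene of the whole table passed the test in those fits. The difference between the lists was not tested.

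**Figure D4:**
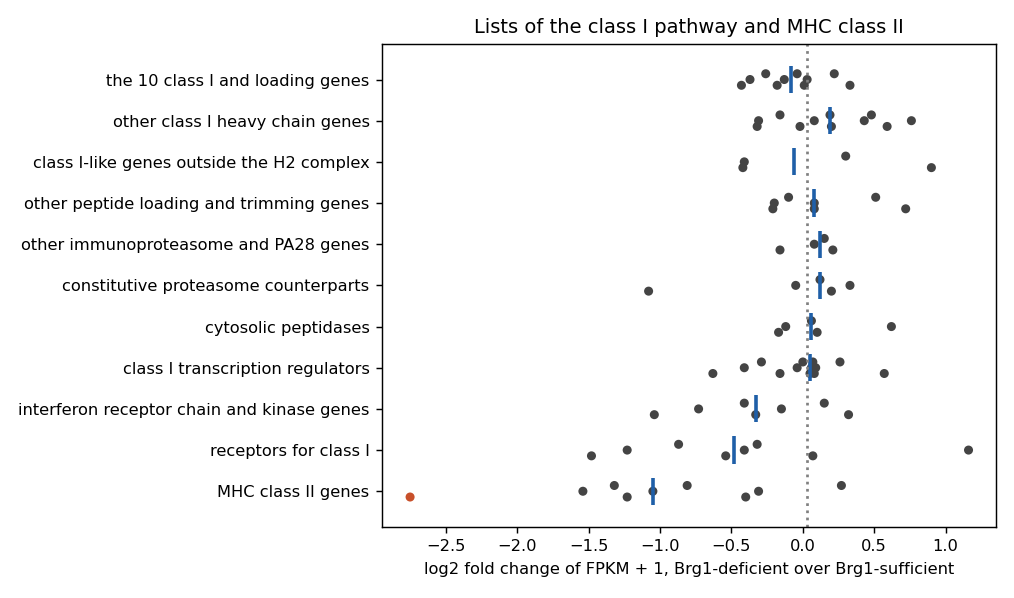
Log2 fold change of FPKM + 1, Brg1-deficient over Brg1-sufficient, of each gene tested in the lists of the class I pathway and in MHC class II (points; orange, adjusted p under 0.05), with the median of each list (blue bars) and of all genes (dotted line, 0.03). The 10 class I and loading genes lie between -0.43 and 0.33, while the class II genes have their median at -1.05 and hold the single orange point, *H2-Oa*.

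Class I genes are close paralogs, so reads of 1 gene can match another. Every stretch of 90 bases in the annotated transcripts of each gene was looked up in the transcripts of all other genes, on both strands. Stretches were pooled over all annotated transcripts of a gene, whatever their expression, and only exact matches were counted. The share among the reads of the expressed transcripts can therefore be higher. *H2-K1* shared 1.54% of its stretches with another gene, *H2-D1* 4.25% and *H2-T23* 4.01%. *H2-Q7* shared 13.8%, most often with *H2-Q10*, *H2-Q5* and *H2-Q6*, and its value is the most uncertain of the 4 heavy chains. *B2m* and *Nlrc5* shared 0%.

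The loading genes shared stretches with neighbours that overlap them on the chromosome. *Tapbp* shared 16.1% of its stretches in all and 15.8% with the antisense gene *Gm19412*. *Psmb8* shared 8.89%, all with the antisense gene *Gm20496*, and *Tap2* shared 6.3% in all and 4.98% with *Gm15821*. In the 4 libraries *Gm19412* was at 3.67 FPKM or below, *Gm20496* at 1.16 FPKM or below and *Gm15821* at 0.82 FPKM or below. The sources used here do not say that strand was used in counting. *Tap1* shared 2.12%, and its start lies beside that of *Psmb9* on the opposite strand.

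**Figure D5:**
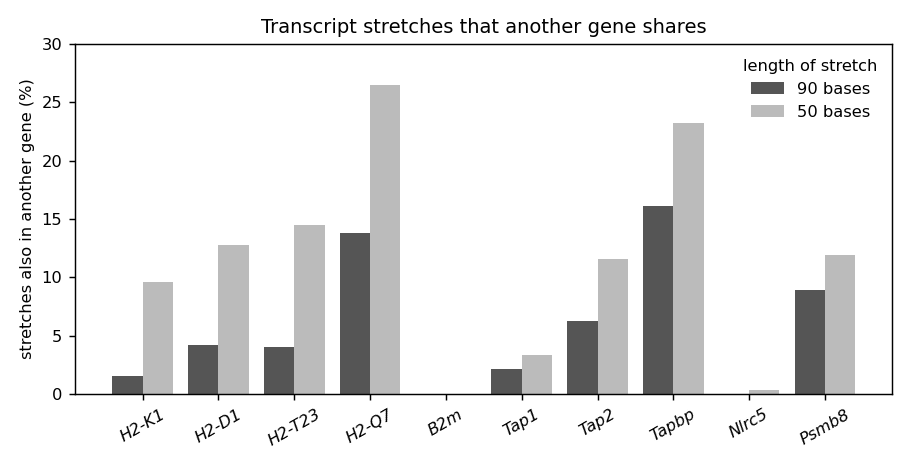
Percent of the stretches of 90 bases (dark bars) or 50 bases (light bars) in each gene's annotated transcripts that also occur in another gene. At 90 bases *Tapbp* (16.1%) and *H2-Q7* (13.8%) share the most, and *B2m* and *Nlrc5* share 0%.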

How the data were processed

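RNA-seq was done on 4 libraries of sorted small intestinal ILC3s, 2 per group. Per the labels and the study's methods, total RNA was extracted, and its cDNA was amplified by PCR and sequenced single-end. The effect of the amplification on the levels of genes was not tested. The authors aligned the reads with STAR 2.5 to GRCm38.p5 and quantified them with RSEM 1.2 and GENCODE M16. The deposited values are FPKM per gene. At 99.3% of the 13693 ranks with a mean above 1 FPKM the 4 libraries differ by under 1%, as after quantile normalization, a step that the sources used here do not state. An overall rise or fall in RNA and the depth of the libraries therefore cannot be seen.

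The main test was limma 3.58.1 (R 4.3.3) with a trended variance on log2(FPKM + 1), over the 14739 genes with a mean above 1 FPKM in either group, with Benjamini-Hochberg adjustment over all of them and a threshold of 0.05. Fold changes are on that scale and understate those of low genes. The model was tested on simulated data with larger changes than those of the 10 genes and without a rank-based scaling. That check therefore does not bear on changes of their size. Libraries are biological duplicates per the study, but nothing ties them to separate animals, so p-values measure the spread between these samples. Groups came from the labels.

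The 10 genes and all gene lists were chosen with earlier results of these data known. Lists are described by counts and medians. In each list, genes with an adjusted p under 0.05 were named and, where a list had none, the 2 largest fold changes among genes with a mean above 5 FPKM. Other genes that the text names beside these were chosen after their values were seen, except those of the ratios. Stretches of 90 or 50 bases were compared on GENCODE M21, a later release than the authors used. Alternatives were another pseudocount (0.1), other filters, no trend, other scalings, a replicate block and leaving out each library. The driver of the Cre transgene and a few genes of the lists are not reported here.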

Additional observations from a re-analysis of the deposited data

How the results depend on the processing

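Of the 10 genes, 0 passed the adjusted threshold under any alternative tried by limma, with 0 to 2 of them at an unadjusted p under 0.05, and the lowest adjusted p was 0.264 (*H2-T23*). In the fits without a library, filter or trend no gene of the table passed, so these say nothing about the calls of the 10 genes. The direction of *H2-K1*, *H2-T23*, *H2-Q7*, *Tap1*, *Tap2* and *Psmb8* was the same throughout. Leaving out 1 library gave log2 fold changes of 0.13 to 0.52 for *H2-T23*, -0.61 to -0.14 for *Tap1*, -0.33 to -0.02 for *H2-Q7* and -0.55 to -0.30 for *Psmb8*, and turned *H2-D1* (-0.07 to 0.08, with -0.01 without Brg1-sufficient library 1), *Tapbp* (-0.15 to 0.22, with -0.03 without Brg1-sufficient library 1) and *Nlrc5* (-0.39 to 0.13). The depth is unknown, so counting error cannot be set apart. At 50 bases the share of stretches in another gene was 9.63% for *H2-K1*, 12.8% for *H2-D1*, 14.5% for *H2-T23*, 26.5% for *H2-Q7*, 23.2% for *Tapbp* and 11.9% for *Psmb8*.

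Over all genes, 33 were lower and 12 higher. With no filter on low FPKM 0 and 0 passed by limma (1400 and 1308 at an unadjusted p under 0.05), without the trend 0 and 0 (965 and 903), and with a mean above 5 FPKM 73 and 41. Leaving out 1 library gave 0 to 0 lower and 0 to 0 higher (509 to 1331 lower and 521 to 1489 higher at an unadjusted p under 0.05). A fit that blocked on the replicate number gave 248 and 150. Among the pathway lists, where *H2-Oa* alone was called lower and 0 higher, the count of lower genes was 0 with no filter, 0 without the trend and 0 to 0 when 1 library was left out. The cause was not tested. With the replicate block it was 7 lower (*H2-Oa*, *Cd74*, *H2-Aa*, *H2-Eb1*, *H2-DMa*, *Ifngr1* and *Psme4*) and 1 higher (*Cd160*), and *Psmb8* had an adjusted p of 0.271. The labels do not say that numbers pair the libraries, and deviations of libraries with the same number had a correlation of -0.000386 across genes.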
